A study of Mus musculus with 48 samples.

Results

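Messenger RNAs that encode secreted, membrane and organelle proteins are largely translated at the endoplasmic reticulum (ER), and detergent extraction recovers them in a membrane fraction. The comparison described here follows the later course of decay of that RNA, from 120 to 240 min after transcription was blocked in mouse embryonic stem cells (mESCs). Members were the genes listed in all 3 membrane libraries of 120 min and in all 3 of 240 min, and the measure was the log2 ratio to 0 min at 240 min minus that at 120 min. Of 23862 genes in the series, 18135 were listed in at least 1 of these 6 libraries and 12953 in all 6. The 6 libraries belong to a series of 48, which covers total, nuclear, cytosolic and membrane RNA.

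All groups were E14TG2a cells, an established mESC line, grown in 2i + LIF medium, a serum-containing medium with inhibitors of the kinases GSK3 and MEK and leukemia inhibitory factor. All of them received 1 µM flavopiridol, an inhibitor of CDK9, which lets RNA polymerase II leave its paused state and elongate. The study names independently passaged cultures as its replicates. Digitonin first opened the plasma membrane and released the cytosol. NP-40 then released the membrane fraction from the washed pellet, with cycloheximide, a translation inhibitor, in the buffers. The fraction therefore holds RNA of the ER and of any other organelle that NP-40 opens, mitochondria included. The last harvest is 240 min in the sample titles and in the analysis methods, but 180 min in the protocol text, and the name 240 min is used here.

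With no new transcription, the level of an mRNA falls at the rate of its decay, and it stays level if the mRNA is long-lived. An mRNA of the membrane fraction may in addition gain molecules still on their way from the nucleus or lose molecules to the cytosol. Each value was the level in a library relative to the level of the same gene at 0 min in the same fraction, scaled by the authors on genes with half-lives over 14 h. A ratio of 1 is the level at 0 min, and a log2 difference of -1 is a fall to 0.5 of the level at 120 min. Fewer cells recovered and less RNA per cell cannot be told apart in such bulk samples.

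The ratios of a gene in different libraries were quotients of whole numbers, from which the reads behind each value could be recovered for 12952 of 12953 genes at a tolerance of 0.001. The exception was mt-Co1. The libraries held between 6127988 and 7423319 such reads, and the median gene had 49.2 reads per library. Of the mESC markers 6 of 8 were listed in all 6 libraries, with 67.2 to 20916 reads on average, and the other 2, Esrrb and Zfp42, in 5. Of 11 markers of primitive endoderm and fibroblasts 5 were listed in none and 3 in all 6, with 3 to 32.3 reads. Genes of mitochondrial DNA other than mt-Co1 took 24.1 to 26.1% of the recovered reads at 120 min and 26.5 to 30.3% at 240 min. The reads of mt-Co1 are in neither the part nor the total.

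Membrane RNA kept falling after 120 min. The median log2 ratio to 0 min of a library was -0.63, -0.79 and -0.68 at 120 min and -1.19, -0.99 and -0.99 at 240 min, so the groups did not overlap. The means were -0.70 ± 0.08 and -1.06 ± 0.12 (SD, n = 3), a difference of -0.36 with an exact two-sided permutation p of 0.1, the smallest that 3 against 3 libraries allow. The median gene moved by a log2 difference of -0.36, a fold of 0.777, with quartiles of -0.88 and 0.04. A limma fit with Benjamini-Hochberg adjustment over the 12953 genes called 3445 that fell (26.6%) and 322 that rose (2.49%) at an adjusted p under 0.05. The 3 ratios of one time all lay above the 3 of the other for 5922 genes (45.7%). By size, 2054 genes fell by at least 1 on the log2 scale with that call and 155 rose by at least 1.

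The direction of slow changes rested on the scaling of the libraries. With libraries centred on the median gene, which removes a shift of -0.36, 1229 genes rose and 1866 fell, and the share of rises among called genes went from 8.55% to 39.7%. Falls are therefore also given relative to the median gene below, by the centred counts. Genes that rose had a median of 40.5 reads and genes that fell 100.17. Under 10 reads lay 70 of the rises and 389 of the falls.

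**Figure D1:**
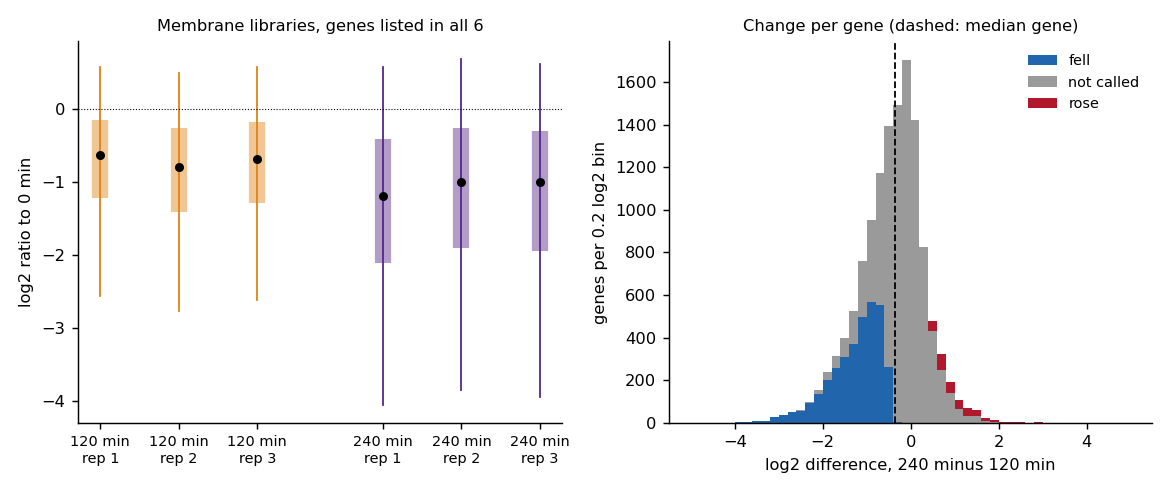
Left, log2 ratio to 0 min of the 12953 genes in each of the 6 membrane libraries; right, number of genes per 0.2 log2 bin of the difference, 240 minus 120 min, stacked by call. The library medians sit between -0.79 and -0.63 at 120 min and between -1.19 and -0.99 at 240 min, and the histogram has its median at -0.36.

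Most genes that fell were already below the 0 min level at 120 min, but 305 of the 3445 were still above it then. At 240 min 1781 of them were under 0.25 of the 0 min level and 657 under 0.1. Of the 322 that rose, 241 stood above the 0 min level at 240 min, and 81 had risen while staying below it. Protein-coding genes fell in 29.7% of 9916 cases, and other gene types in 16.5% of 3037, with medians of -0.37 and -0.34. A further 120 genes were listed in the 3 libraries of 120 min and in none of 240 min, and 53 the other way round. They have no ratio at one of the times and entered no test.

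The list with the highest share of falls was that of ER chaperones and the unfolded protein response. This response senses unfolded protein in the ER through IRE1, PERK and ATF6 and raises chaperones and degradation factors. Of 26 members tested 23 fell (88.5%, against 26.6% of all genes) and none rose. The list's median log2 difference was -1.07, below the -0.36 over all genes. Its library medians were -0.02, -0.14 and -0.06 at 120 min, close to the 0 min level, and -1.39, -1.15 and -1.48 at 240 min. With libraries centred on the median gene 16 still fell, and without any one library 16 to 23 fell. In the cytosol 16 of 22 tested members fell, where 41.7% of 12507 genes fell and 2.65% rose.

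Xbp1 (ENSMUSG00000020484, chr11:5520659-5525893, GRCm38), the transcription factor mRNA that IRE1 activates by removing a short intron, had the largest fall of the genes open to naming. It stood at 0.277, 0.229 and 0.274 of its 0 min level at 120 min and at 0.0114, 0.0153 and 0.0158 at 240 min. The groups were far apart, with a log2 difference of -4.21 ± 0.24 (SE), an 18.5-fold fall with an adjusted p of 0.00339, on 781 to 895 reads at 120 min and 49 to 65 at 240 min. In the cytosol the log2 difference was -2.67. The 26 bases that IRE1 removes lie at chr11:5524282-5524307 on the plus strand. They are printed in capitals, as read from the GENCODE transcript in the window chr11:5524280-5524309, because their removal ties this mRNA to an enzyme of the ER membrane.
Xbp1: agCACTCAGACTATGTGCACCTCTGCAGca
Gene-level values do not separate the spliced from the unspliced form.

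The sensors and chaperones fell less steeply. Eif2ak3, which encodes the sensor kinase PERK, went from 0.745, 0.743 and 0.819 to 0.254, 0.273 and 0.225, a log2 difference of -1.62 ± 0.15 with an adjusted p of 0.00339. Hsp90b1, the abundant ER chaperone GRP94, was above its 0 min level at 120 min, with ratios of 1.28, 1.13 and 1.43, and at 0.527, 0.541 and 0.533 at 240 min. Its log2 difference was -1.26 ± 0.13, with an adjusted p of 0.00359. The sensors Atf6 and Ern1, the latter encoding IRE1, fell by 0.62 and 0.56 on the log2 scale. Among enzymes of disulfide formation Pdia6 fell by 1.07, Pdia4 by 1.03, P4hb by 0.67 and Pdia3 by 0.60. Edem1, which extracts misfolded glycoproteins for degradation, fell by 1.21 ± 0.13. The 3 members without a call were Hyou1 at -2.35 (12 reads), Trib3 at -1.18 and Ddit3 at -0.40. Hspa5, the main ER chaperone BiP, had a log2 difference of -2.68 but only 32.2 reads, few for so abundant an mRNA, and its value is taken as uncertain.

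Genes of cholesterol synthesis and uptake fell further as a group. The pathway leads through enzymes of the ER membrane to cholesterol, and its genes are switched on together by SREBP2. Of 26 tested members 21 fell (80.8%, against 26.6% of all genes) and none rose, with a median log2 difference of -1.52. The library medians were -0.62, -0.65 and -0.56 at 120 min and -2.22, -1.92 and -2.25 at 240 min. With centred libraries 18 fell, and without any one library 19 to 21 fell. In the cytosol 18 of 24 fell.

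Msmo1, a sterol demethylase, stood at 0.607, 0.589 and 0.663 at 120 min and 0.0835, 0.0819 and 0.0606 at 240 min. That was a log2 difference of -3.05 ± 0.20, an 8.3-fold fall with an adjusted p of 0.00339. Cyp51, the lanosterol demethylase, went from 0.86, 0.754 and 0.867 to 0.151, 0.157 and 0.128, a log2 difference of -2.51 ± 0.16. In neither gene did the groups come near each other. Sqle, the squalene epoxidase, fell by 2.51 on the log2 scale on 57.5 reads. Insig1, which retains the SREBP complex in the ER, went from 1.26, 1.06 and 1.21 to 0.358, 0.375 and 0.309. Its log2 difference was -1.76 ± 0.14. Scap, the SREBP escort, fell by 0.76, whereas Srebf2, the gene of SREBP2 itself, had a log2 difference of -0.48 and no call. Npc2, a cholesterol carrier of the lysosome, was level at -0.02 on 8269 reads.

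The machinery that brings proteins into the ER and modifies them fell in part. Of 30 members of targeting, translocon and glycosylation complexes 17 fell (56.7%, against 26.6% of all genes) and none rose. The median log2 difference was -0.56, and 6 fell with centred libraries. Without 120 min replicate 1 there were 10 falls, and without replicate 3 there were 9. Stt3b, a catalytic subunit of oligosaccharyltransferase, went from 0.896, 0.858 and 0.939 to 0.327, 0.329 and 0.286. Its log2 difference was -1.52 ± 0.13, with an adjusted p of 0.00339. The paralog Stt3a fell by 0.63. Srprb, the membrane anchor of the receptor for the signal recognition particle, fell by 1.56 ± 0.23, and Sec11c of the signal peptidase by 0.88 ± 0.12. Sec61a1, the channel itself, fell by 0.64 on 9929 reads, and its partner Sec61b had a log2 difference of -0.35 without a call. Of 32 genes of COPI and COPII vesicle coats and p24 cargo receptors 14 fell (43.8%, against 26.6% of all genes). The median was -0.38, close to all genes, and with centred libraries 5 fell and 2 rose. Their falls came to 5 without 120 min replicate 1 and to 6 without replicate 3. Sec24b, a COPII cargo adaptor, fell by 1.61 ± 0.20 and the p24 protein Tmed9 by 0.95 ± 0.12, while the COPI subunits Copa and Copg1 stood at 0.10 and 0.13.

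Signalling receptors, which reach the cell surface through the ER, fell in 29 of 44 cases (65.9%) and rose in 1 (2.27%). The shares of all genes were 26.6% and 2.49%, and the receptors had a median log2 difference of -0.92. With centred libraries 19 fell and 1 rose. Of the 7 Frizzled genes tested, which encode receptors for Wnt ligands, 6 fell, and Fzd5 had a log2 difference of -0.26 and no call. Fzd10 stood at 0.0528, 0.0398 and 0.0448 at 120 min and at 0.00683, 0.00605 and 0.00435 at 240 min, with 72 to 93 reads and then 9 to 16. This was a log2 difference of -3.01 ± 0.27, an 8.06-fold fall with an adjusted p of 0.00339. Fzd7 fell by 2.71 ± 0.31 and Notch1, a receptor of cell contact, by 1.84 ± 0.20. Plxna1, a semaphorin receptor, was still near its start at 120 min, with ratios of 0.992, 0.9 and 0.927, and stood at 0.304, 0.348 and 0.264 at 240 min. Its log2 difference was -1.63 ± 0.15. In contrast Lifr, the receptor subunit for leukemia inhibitory factor, had a log2 difference of -0.02 ± 0.12 and Igf2r, which sorts lysosomal enzymes, one of 0.15.

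The receptor that rose was Ephb2, a receptor tyrosine kinase for ephrins. It had ratios of 1.35, 0.987 and 1.12 at 120 min and 2.6, 2.7 and 2.58 at 240 min. The groups did not overlap, and the log2 difference was 1.20 ± 0.16, a fold of 2.3 with an adjusted p of 0.00537, on 222 reads. Its relatives Ephb3 and Epha4 fell by 1.96 and 1.23.

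Tfrc, the transferrin receptor (ENSMUSG00000022797, chr16:32608920-32632794), is an example of the study. It had ratios of 0.8, 0.827 and 0.955 at 120 min and 0.344, 0.339 and 0.312 at 240 min. All 240 min values lay lower, with a log2 difference of -1.37 ± 0.14, a 2.59-fold fall with an adjusted p of 0.00355. Its rate was -0.15 per hour on the log2 scale from 30 to 120 min and -0.69 from 120 to 240 min, and the 2 rates differed with an adjusted p of 0.0106. Such calls depended on the times used. Over all genes the calls of a lower later rate went from 350 to 37 with an early window of 60 to 120 min. With 180 min as the last time they came to 1017. The stability of Tfrc mRNA is known to depend on iron-responsive elements in its 3′ UTR, hairpins whose loop is bound by iron regulatory proteins when iron is low. A search of the plus-strand transcript for C, 5 bases, CAGTG, any base and 5 bases that pair with the first 5 (G with T allowed) found 4 in Tfrc, at chr16:32631219-32631248, chr16:32631598-32631627, chr16:32631663-32631692 and chr16:32631710-32631739. They are printed in that order, with the loop motif in capitals.
Tfrc 1: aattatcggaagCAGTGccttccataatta
Tfrc 2: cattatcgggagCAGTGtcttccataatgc
Tfrc 3: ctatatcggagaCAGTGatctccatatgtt
Tfrc 4: aattatcgggaaCAGTGtttcccataattt
Of 9725 3′ UTRs searched 62 (0.638%) held at least 1 such match and 1 held 3 or more. A match is a pattern of letters, and binding was not measured. The other example, Nf1, a regulator of RAS, had ratios of 0.736, 0.645 and 0.762 and then 0.714, 0.757 and 0.797, which overlap, and a log2 difference of 0.08 ± 0.13 with an adjusted p of 0.669.

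Matrix genes, whose products also enter the ER, moved little. Of 24 genes of secreted matrix and basement membrane 2 fell (8.33%, against 26.6% of all genes) and none rose. The median log2 difference was -0.09, above that of all genes. With centred libraries none fell and 2 rose. Lamc1, the laminin γ1 chain, had ratios of 1.54, 1.44 and 1.55 at 120 min and 1.43, 1.55 and 1.27 at 240 min, overlapping, on 34070 reads. The log2 difference was -0.10 ± 0.14 with an adjusted p of 0.629. Nid1, which links laminin to collagen IV, stood at -0.17 ± 0.13 and Nid2 at -0.09. The falls were Plod3, which modifies collagen lysines, at -0.77 ± 0.16, and Thbs1 at -1.15 ± 0.30 on 10.7 reads. Plod3 had an adjusted p of 0.0654 without 120 min replicate 1 and 0.0628 without replicate 3. Thbs1 had adjusted p-values of 0.0836, 0.0909 and 0.075 without 120 min replicates 1, 2 and 3.

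Of 25 adhesion receptors 11 fell (44%, against 26.6% of all genes) and none rose, with a median of -0.48. With centred libraries 5 fell and 2 rose. Without 120 min replicates 1, 2 and 3 the falls came to 6, 6 and 5. Cd81, a tetraspanin, fell by 1.15 ± 0.14, Tspan14 of the same family by 0.98 ± 0.12, and the junction protein gene F11r by 0.96 ± 0.11. Cdh1, the E-cadherin that holds mESC colonies together, stood at 0.12 ± 0.12 and the integrin subunit Itgb1 at -0.17 ± 0.13, without a call. Cdh1 passed as a rise with centred libraries, at 0.48 and an adjusted p of 0.032, and Nf1 likewise at 0.44 and 0.0284.

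Lysosomal proteins moved in both directions. Of 28 members 4 rose and 4 fell (14.3% each, against 2.49% and 26.6% of all genes). The median log2 difference was 0.09, and with centred libraries 10 rose and 1 fell. There were 2 rises and 2 falls without each 120 min replicate, and 2 rises without 240 min replicate 2. Hexa, a hexosaminidase subunit, had ratios of 1.48, 1.5 and 1.38 at 120 min and 2.86, 2.68 and 2.54 at 240 min. The 240 min values were all higher, by a log2 difference of 0.89 ± 0.14, a fold of 1.85 with an adjusted p of 0.00815, on 2196 reads. Glb1, the lysosomal β-galactosidase, went from 1.53, 1.29 and 1.36 to 2.4, 2.6 and 2.56, a log2 difference of 0.86 ± 0.15. The other 2 rises, Gusb at 0.54 ± 0.12 and the cathepsin gene Ctsz at 0.48 ± 0.13, were smaller. Gusb was not called without each of the 120 min replicates or without 240 min replicate 2, with an adjusted p of at most 0.073. Ctsz was not called without any library other than 240 min replicate 3, with an adjusted p of at most 0.103. With libraries scaled on mitochondrially encoded mRNAs the adjusted p was 0.116 for Gusb and 0.164 for Ctsz. The falls included Gla, the α-galactosidase, at -0.98 ± 0.18, and Gnptab, which tags enzymes for lysosomes, at -0.74 ± 0.12. With centred libraries Gnptab stood at -0.38, with an adjusted p of 0.057 and no call. Lamp1, the abundant lysosomal membrane protein, stood at 0.17 ± 0.13 on 20144 reads.

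**Figure D2:**
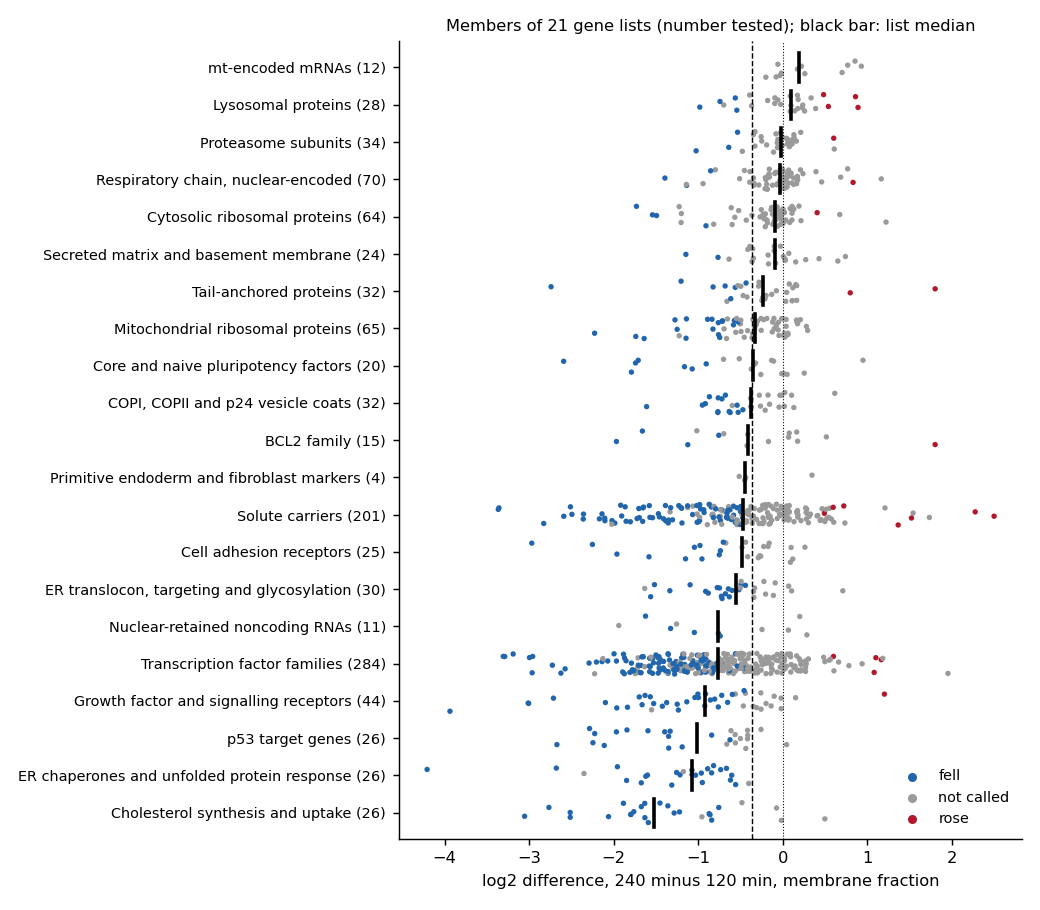
Log2 difference, 240 minus 120 min, of each tested member of 21 gene lists in the membrane fraction, coloured by call, with a black bar at the list median. Cholesterol synthesis (median -1.52) and ER chaperones (-1.07) lie far to the left, while lysosomal, matrix, respiratory chain and proteasome genes centre near 0.

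Tail-anchored proteins enter membranes after translation, so their mRNAs need no ribosome at the ER. Of 32 members 7 fell (21.9%, near the 26.6% of all genes) and 2 rose (6.25%, against 2.49% of all genes). The median was -0.23, and with centred libraries 2 fell and 5 rose. The falls came to 1 without 120 min replicate 1 or 3, and to 3 without 120 min replicate 2 or without 240 min replicate 1 or 2. The SNARE genes Gosr2 and Bet1l fell by 0.61 ± 0.12 and 1.20 ± 0.21. Gosr2 had an adjusted p of 0.0551 without 120 min replicate 1 and 0.0571 without replicate 3. Vamp1 was called as a rise, at 0.80 ± 0.22, on 12.8 reads. It was not called without 5 of the 6 libraries in turn (120 min replicate 3 being the exception), with an adjusted p of at most 0.102, nor by limma-voom on the recovered reads, with one of 0.127.

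Hrk, which is tail-anchored and belongs to the BH3-only members of the BCL2 family that promote apoptosis, rose. It had ratios of 1.46, 1.3 and 1.43 at 120 min and 4.07, 5.18 and 5.44 at 240 min, with 59 to 66 and then 245 to 308 reads. The log2 difference was 1.80 ± 0.20, a fold of 3.49 with an adjusted p of 0.00369, and it was 2.21 in the cytosol. Of the other BH3-only genes tested, Bbc3, encoding PUMA, fell by 1.97 ± 0.28, Bcl2l11, encoding BIM, by 1.66 ± 0.25 and Bid by 1.12. Bmf, Pmaip1 and Bik had log2 differences of -1.02, -0.41 and 0.52 and no call. Of 15 BCL2 family genes 4 fell (26.7%, near the 26.6% of all genes) and 1 rose, with a median of -0.41, and with centred libraries 4 fell and 1 rose. The antiapoptotic Mcl1 stood at -0.42 without a call.

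Targets of p53, the DNA damage response factor, fell in 15 of 26 cases (57.7%, against 26.6% of all genes) with none rising. The median log2 difference was -1.02. With centred libraries 14 fell and 1 rose. Btg2, an antiproliferative gene, went from 0.29, 0.248 and 0.269 to 0.0404, 0.0445 and 0.0417. Its log2 difference was -2.67 ± 0.20, a 6.37-fold fall. The small GTPase gene Rap2b fell by 2.11 ± 0.18, and Cdkn1a, the CDK inhibitor p21, by 1.59 on 30 reads.

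Transcription factors are made on free ribosomes, often from short-lived mRNAs, and the members of these families stood at a median ratio of 0.24 at 120 min. Of 284 tested members 107 fell (37.7%) and 4 rose (1.41%), against 26.6% and 2.49% of all genes. The median was -0.76, and with centred libraries 69 fell and 11 rose. The falls came to 61 without 120 min replicate 1 and to 64 without replicate 3, and the rises to 1 or 2 without any one library. Zfp322a, a zinc finger gene, went from 0.239, 0.196 and 0.236 to 0.034, 0.0375 and 0.0411, a log2 difference of -2.57 ± 0.21. Zfp385a fell by 2.62 ± 0.20. Klf12, a repressor of the Krüppel-like family, rose from 1.22, 1.54 and 1.67 to 3.26, 3.42 and 2.77, a log2 difference of 1.10 ± 0.19 on 81 reads. Gata3 was called at 1.16, but on 2 reads, and not by limma-voom.

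Of 20 pluripotency factors 7 fell (35%, against 26.6% of all genes) and none rose, with a median of -0.36, equal to that of all genes. With centred libraries 4 fell and 2 rose. There were 4 falls without 120 min replicate 1 or 3. Pou5f1, encoding OCT4, had ratios of 0.949, 0.975 and 0.979 at 120 min and 1.01, 0.958 and 0.968 at 240 min. These overlap, and the log2 difference was 0.02 ± 0.11 on 14378 reads. The partner factor Sox2 was already at 0.0774, 0.0655 and 0.0693 at 120 min and at 0.037, 0.0415 and 0.0348 at 240 min. Its log2 difference was -0.91 ± 0.22 with an adjusted p of 0.0261, which rose to between 0.0509 and 0.0965 without any one library and to 0.093 with centred libraries. Nanog fell by 1.07 ± 0.19, Sall4 by 1.74 ± 0.20 and Utf1 by 1.71 ± 0.30. Noncoding RNAs known to stay mostly in the nucleus fell in 5 of 11 cases (45.5%, against 26.6% of all genes). Without 120 min replicate 1 or 3 there were 3 falls. Tug1 fell by 1.62 ± 0.21 and Kcnq1ot1 by 1.33 ± 0.23. Malat1 stood at -0.25 on 8883 reads.

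Solute carriers, the transporters of the plasma and organelle membranes, fell in 76 of 201 cases and rose in 7, with a median of -0.47. The shares were 37.8% and 3.48%, against 26.6% and 2.49% of all genes, so the rises lay near the share of all genes. With centred libraries 44 fell and 22 rose. The falls came to 47 without 120 min replicate 1 and to 46 without replicate 3, and the rises to 4 without either of these and to 3 without 240 min replicate 2. Slc2a1, the glucose transporter GLUT1, fell by 2.83 ± 0.25, the copper transporter gene Slc31a2 by 1.86 ± 0.15 and Slc35f5 by 1.46 ± 0.12. Slc44a3 rose from 0.989, 0.889 and 1.14 to 2.68, 2.37 and 2.69, a log2 difference of 1.36 ± 0.16 on 43.2 reads. Slc35g3 rose by a log2 difference of 1.52 ± 0.22 on 28.2 reads.

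Housekeeping complexes had medians near 0, apart from the mitochondrial ribosome. Of 70 nuclear-encoded respiratory chain genes 3 fell (4.29%) and 1 rose (1.43%), against 26.6% and 2.49% of all genes, with a median of -0.03. Atp5b, the ATP synthase β subunit, stood at 0.17 on 20463 reads. The rise, Atp5s at 0.83, rested on 1.67 reads. Of 34 proteasome subunits 3 fell (8.82%) and 1 rose (2.94%), with a median of -0.02. Psmd7, a lid subunit of the regulatory particle, fell by 1.02 ± 0.18. Of 64 cytosolic ribosomal protein genes 4 fell (6.25%) and 1 rose (1.56%), with a median of -0.09. Rpl28 and Rpl18 were called as falls, at -1.49 and -1.54, on 102 and 26.5 reads, but these members had far fewer reads than the list's median of 2269, and ribosomal protein genes are known to have processed copies in the genome. Whether reads were shared with such copies was not tested, and both values are taken as uncertain. The falls of this list came to 2 without each 120 min replicate, and those of the proteasome to 1 without each 120 min replicate or 240 min replicate 2. The single rises of the respiratory chain and the proteasome were each lost without 5 of the 6 libraries in turn, the exceptions being 240 min replicates 3 and 1. The rise, Rpl24 at 0.41 ± 0.12, was not called without any one of the 6 libraries, with an adjusted p between 0.0792 and 0.154. With centred libraries the respiratory chain had 13 rises and the proteasome and the ribosome 3 each. Mitochondrial ribosomal protein genes fell in 18 of 65 cases (27.7%, near the 26.6% of all genes), with a median of -0.33, and with centred libraries 9 fell and 6 rose. Without 120 min replicates 1 and 3 there were 8 and 11 falls. By gene, falls included Mrps2 by 1.74 ± 0.18 and Mrps7 by 1.14 ± 0.15.

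The mRNAs made inside mitochondria are copied by a different polymerase. None of 12 tested was called by limma on the ratios, with 0 at an unadjusted p under 0.05, whereas limma-voom on the recovered reads called 4 rises and 1 fall. Their median was 0.20, with a range from -0.20 to 0.93. The 6 members with at least 83262 reads on average lay between -0.20 for mt-Nd1 and 0.26 for mt-Nd6, with mt-Cytb at -0.03 on 518060 reads. The highest values, mt-Co2, mt-Co3 and mt-Atp6 at 0.77, 0.70 and 0.93 on 129 to 175 reads and mt-Atp8 at 0.85 on 9.33 reads, are uncertain, since mitochondrial genes are known to have near-identical copies in the nuclear genome, and shared reads were not tested for. Scaling all libraries on these mRNAs moved the median gene to a log2 difference of -0.46, with 3506 falls and 178 rises.

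Among named genes across the whole fraction, after Xbp1 the steepest falls were Fam222a at -4.07 ± 0.53 (11 reads), Eepd1 at -3.90 ± 0.51 (12.8 reads), the cyclin gene Ccnq at -3.88 ± 0.31 and Tnfrsf1a at -3.86 ± 0.33. Tnfrsf1a, the receptor for tumour necrosis factor, went from 0.359, 0.285 and 0.336 to 0.0332, 0.0217 and 0.0155. Irf2bp1, Rpp25l and Tmem115, the last a Golgi membrane protein gene, had log2 differences of -3.71 ± 0.25, -3.53 ± 0.24 and -3.45 ± 0.22. Each of these 7 kept its call without any one library.

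Among called genes listed in all 48 libraries, the largest rise was that of Socs3, a feedback inhibitor of cytokine signalling that LIF induces through STAT3 (ENSMUSG00000053113, chr11:117966079-117970047). It had ratios of 0.0249, 0.0274 and 0.026 at 120 min and 0.177, 0.181 and 0.187 at 240 min, with 41 to 50 and then 380 to 412 reads. The log2 difference was 2.80 ± 0.20, a fold of 6.97 with an adjusted p of 0.00339, and it was 2.31 in the cytosol. The transcript was thus at its lowest measured level at 120 min and remained below its 0 min level at 240 min. Trib1, a pseudokinase gene, had the same course, from 0.0216, 0.0273 and 0.0197 to 0.106, 0.145 and 0.12, a log2 difference of 2.43 ± 0.25 on 25 reads.

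Other large rises crossed the 0 min level. Adgrd1, an adhesion G protein-coupled receptor gene, went from 0.622, 0.588 and 0.877 to 2.74, 3.65 and 3.93, a log2 difference of 2.31 ± 0.23 on 28.3 reads. Prr15 and Cabp4 rose by log2 differences of 2.68 ± 0.40 and 1.91 ± 0.22, on 8.67 and 8.5 reads. Of the 8 steepest rises 3 lost their calls without single libraries. Slc25a18, the third in size at 2.50 ± 0.57, had adjusted p-values of 0.0514, 0.0618, 0.0536 and 0.0613 without 120 min replicates 1 and 2 and 240 min replicates 2 and 3. Jazf1, at 1.99 ± 0.41 on 8.5 reads, had an adjusted p of 0.0579 without 120 min replicate 3. Trp53cor1, a noncoding RNA next to Cdkn1a, at 1.81 ± 0.44, had 0.0575 without 120 min replicate 1 and at most 0.0745 without each 240 min replicate.

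**Figure D3:**
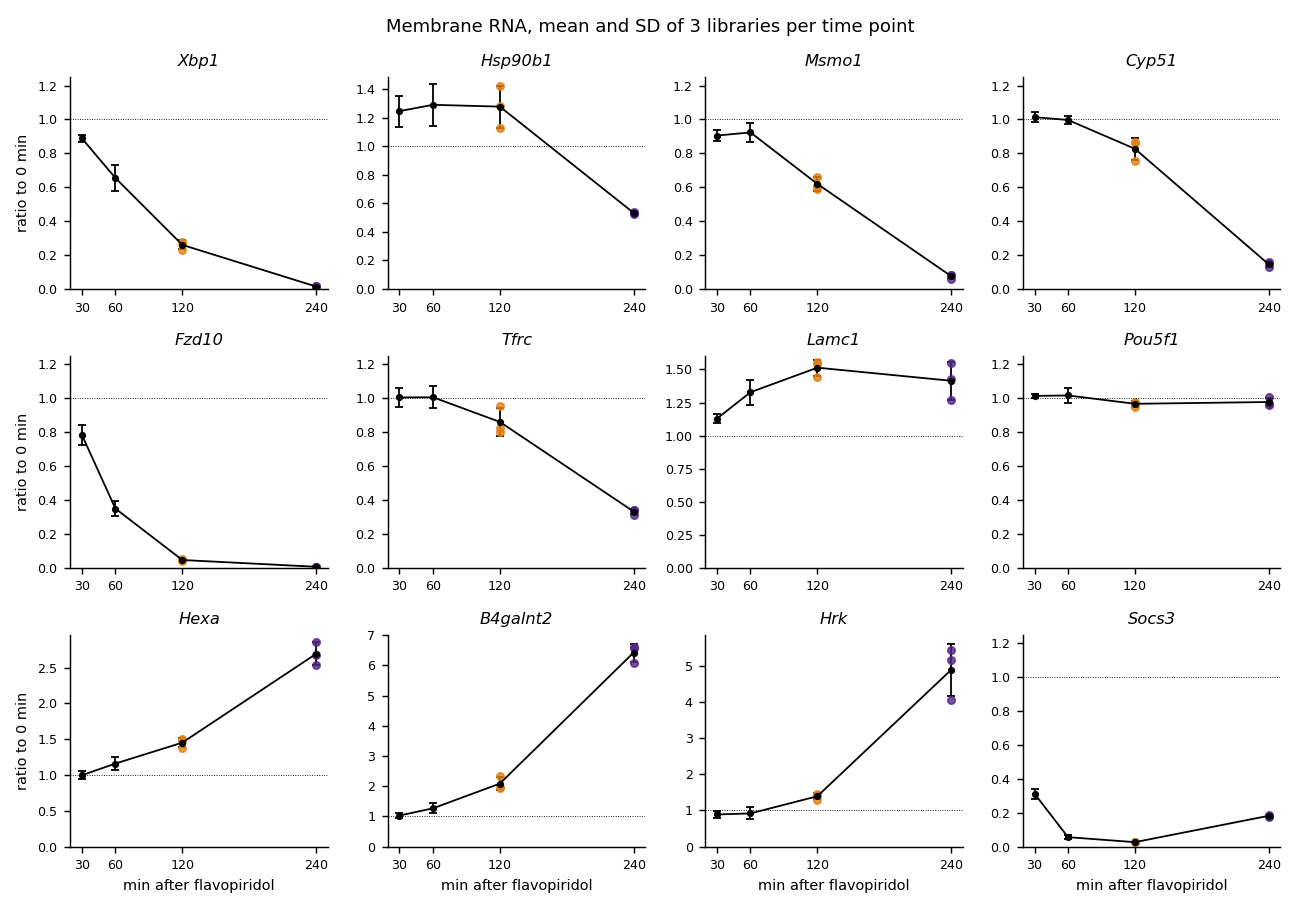
Ratio to 0 min in the membrane fraction of 12 genes against min after flavopiridol, at 30, 60, 120 and 240 min, as the mean and SD of 3 libraries, with a dotted line at the 0 min level. Xbp1, Msmo1 and Cyp51 go on falling to 240 min, Lamc1 and Pou5f1 stay level, Hexa, B4galnt2 and Hrk rise, and Socs3 turns up from its lowest point at 120 min.

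Whether the late change differed from that of the same gene in the cytosol was tested as the difference of differences over 12 libraries. Of 11506 genes 5 changed by more in the upward direction in the membrane fraction (0.0435%) and 5 in the downward direction (0.0435%), against 1484 with an unadjusted p under 0.05. The median late change was -0.36 in the membrane fraction and -0.49 in the cytosol. The median 95% interval of a gene's difference, not adjusted for the number of genes, reached 0.64 to each side. The smallest difference called after adjustment was 1.05 (Nktr), so a gene without a call is not shown to change alike in both fractions. Without any one of the 12 libraries 0 to 1 and 0 to 5 genes were called in these directions, and no gene kept its call throughout.

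B4galnt2, a Golgi glycosyltransferase gene, had membrane ratios of 2.34, 1.95 and 1.97 at 120 min and 6.59, 6.6 and 6.08 at 240 min. Its cytosol ratios were 1.24, 0.832 and 0.974 and then 0.975, 0.872 and 0.99. The rise in the membrane fraction was 1.63 ± 0.22 on the log2 scale, the cytosol value was -0.09, and the difference was 1.71 with an adjusted p of 0.0423. Ogt, the enzyme that adds O-linked N-acetylglucosamine to cytosolic and nuclear proteins, fell in both, by 0.93 in the membrane fraction and by 2.24 in the cytosol, a difference of 1.31. Nktr, a cyclophilin-related gene, had membrane ratios of 1.01, 0.808 and 0.972 and then 0.886, 0.874 and 0.938. The cytosol ratios went from 0.833, 0.836 and 0.892 to 0.397, 0.373 and 0.428, and the difference was 1.05. The antisense gene E530011L22Rik, with a difference of 1.27, overlaps the 3′ end of Nktr on the other strand, and whether counting used the strand is not given in the sources used here, so the 2 may share reads. The remaining gene, Gm12583, is a processed pseudogene with 7.33 reads and a difference of 1.88.

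In the other direction Il17ra, the receptor for interleukin-17, fell in the membrane fraction from 0.441, 0.434 and 0.464 to 0.156, 0.0958 and 0.13. In the cytosol it rose from 0.3, 0.181 and 0.118 to 0.539, 0.666 and 0.493, and the difference was -3.43 with an adjusted p of 0.0423. Reads were recovered for membrane libraries only, 67 on average for Il17ra, so the depth behind its cytosol ratios is not known here. Slc27a3, a fatty acid transporter gene, fell by 1.65 in the membrane fraction, against a cytosol value of -0.21, a difference of -1.44 with the lowest adjusted p of this test, 0.0303. Elovl7, which elongates fatty acids at the ER, fell by 0.83 in the membrane fraction and rose by 0.64 in the cytosol, a difference of -1.46. Slc35g1 fell by 1.85 and 0.70, a difference of -1.15, and Parm1, a membrane glycoprotein gene named as a call of so few, had the same difference of -1.15. None of the 22 chaperone, 24 cholesterol synthesis and 38 signalling receptor genes tested here was called. Over all 11506 genes 0.0435% were called in each direction, so the lack of calls says nothing particular about these lists.

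**Figure D4:**
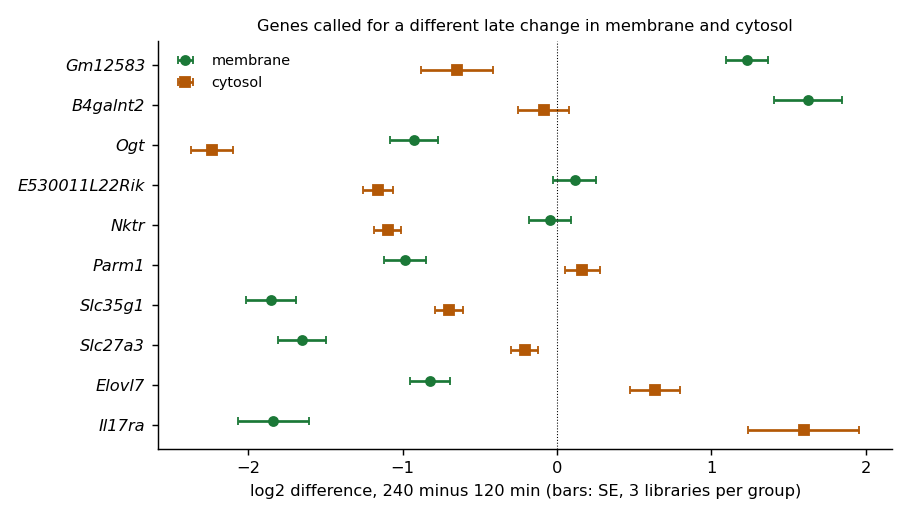
Log2 difference, 240 minus 120 min, with its SE (3 libraries per group) in the membrane fraction (circles) and the cytosol (squares) for the 10 genes called for a different late change. B4galnt2 rises in the membrane fraction (1.63) and not in the cytosol (-0.09), and Il17ra falls in the membrane fraction (-1.84) and rises in the cytosol (1.60).

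The change per hour after 120 min was then compared with that from 30 to 120 min in the membrane fraction. Both rates use the 120 min libraries, so an error in those moves the rates in opposite directions. Over 12408 genes the median rate was -0.40 per hour on the log2 scale before 120 min and -0.19 after it. If the last harvest was at 180 min, as in the protocol text, the later median was -0.38. With 240 min as the last time, the later rate was higher for 1410 genes (11.4%) and lower for 350 (2.82%). As a description of the called genes, those with a higher later rate had a median of -0.84 early and -0.04 late. Genes with a lower later rate had a median of 0.04 early and -0.57 late, so their level at 120 min lay near that at 30 min. The calls picked genes by the difference of these same 2 rates, so a contrast between the medians was set by the choice and nothing is concluded from it. The early rate joins the 30 and 120 min libraries only, and does not tell whether a fall began before 120 min. These counts moved with the scaling and with single libraries: 1143 and 178, 455 and 159, and 693 and 104 without 120 min replicates 1, 2 and 3, 2401 and 414 without 240 min replicate 1, and 784 and 1060 with centred libraries. With 180 min as the last time 527 were higher and 1017 lower, so that the balance turned, as it did with centring. Scaling on mitochondrially encoded mRNAs gave 5339 and 67, and an early window of 60 to 120 min gave 116 and 37.

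Among the ER lists, chaperone genes had median rates of -0.12 and -0.54 per hour, and translocon genes of -0.09 and -0.28. Cholesterol genes were already falling, with -0.37 early, and fell faster later, with -0.76. A lower later rate was called for 16 of 26 chaperone and unfolded protein response genes (with 3 higher), for 11 of 26 cholesterol genes (with 1 higher) for 5 of 30 translocon genes (with none higher) and for 2 of 32 vesicle coat genes (with 1 higher). With 180 min as the last time these lists had 17, 18, 12 and 7 lower rates, and with mitochondrial scaling 2, 3, 0 and 0. An early window of 60 to 120 min left 0, 3, 0 and 0 lower rates. Cyp51 had rates of -0.20 and -1.26 per hour, with an adjusted p of 0.000781, and Insig1 of 0.15 and -0.88. Stt3b went from -0.19 to -0.76, and Hsp90b1 from 0.02 to -0.63. Transcription factors had the reverse pattern, with a higher later rate for 111 of 281 and a lower one for 6, and so had pluripotency factors, with 8 of 20 and none. With 180 min as the last time the transcription factors had 45 higher and 20 lower, and the pluripotency factors 5 and none. The early window of 60 to 120 min gave 17 higher and 1 lower for transcription factors, and 3 and none for pluripotency factors. Sox2 had rates of -2.25 and -0.45 per hour, with an adjusted p of 0.000268. For Socs3 the rate changed sign, from -2.38 to 1.40, with an adjusted p of 1.24e-05.

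The protein a gene encodes was described by hydrophobic segments, windows of 19 residues with a mean Kyte-Doolittle hydropathy of at least 1.6, found by translating the coding sequence of 9908 genes. Genes with 2 or more segments, as in proteins that cross the membrane several times, fell in 37.4% of 1640 cases, with a median of -0.47. Genes with none fell in 27.6% of 6457 cases (-0.36), those with 1 segment within 60 residues of the start, as in a signal peptide, in 31.5% of 710 (-0.31), and those with 1 further in in 29.2% of 1101 (-0.35). In the cytosol the shares were 53.8% for genes without a segment, 31.9% with 1 near the start, 46.9% with 1 further in and 33.3% with 2 or more. Reads of genes with at least 1 segment made up 43.617, 45.227 and 45.433% of the assigned reads at 120 min and 43.565, 42.396 and 38.21% at 240 min. The groups did not overlap, but the highest value at 240 min lay just under the lowest at 120 min.

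The share that fell also rose with the length of the 3′ UTR. Sorted by 3′ UTR length into 4 classes of like size, bounded at 402, 1005.5 and 2102.5 bases, 19.5, 29.9, 32.3 and 37.7% of genes fell from the shortest to the longest, with medians of -0.19, -0.38, -0.43 and -0.48. Reads rose along the same classes, from a median of 57.5 to 136.5, and their part in the order was not tested. In the cytosol the shares were 35.1, 49.3, 52.8 and 58.2%. The AU-rich nonamer TTATTTATT, searched on the transcript strand only, is a known signal for rapid decay and was found in 694 of 9724 3′ UTRs (7.14%). Genes with 1 copy fell in 38.3% of 545 cases (median -0.53), those with 2 or more in 30.2% of 149 (-0.54) and those without it in 29.3% of 9030 (-0.36). The share with 2 or more copies thus lay near that without a copy. These classes were not matched for 3′ UTR length, and its part in their shares was not tested.

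As examples from genes that fell, chosen after their values had been seen, the nonamer is printed in capitals for Srprb and Edem1, with 2 copies each, and for Plxna1 and Zfp322a, with 1. In Srprb, at chr9:103188368-103188397 on the minus strand, the other copy overlaps the one shown. Edem1 carries its copies at chr6:108857115-108857144 and chr6:108859042-108859071 on the plus strand, Plxna1 at chr6:89318632-89318661 and Zfp322a at chr13:23354805-23354834, both on the minus strand.
Srprb: aggataaatgTTATTTATTtatttatagcc
Edem1 1: gcaattggtcTTATTTATTtgttaagaata
Edem1 2: agctgcatttTTATTTATTacatacacaaa
Plxna1: catgttcccgTTATTTATTccccgcctcct
Zfp322a: aaaaaaagatTTATTTATTattatacataa
The motif matches describe letters, and no factor was measured on them.

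**Figure D5:**
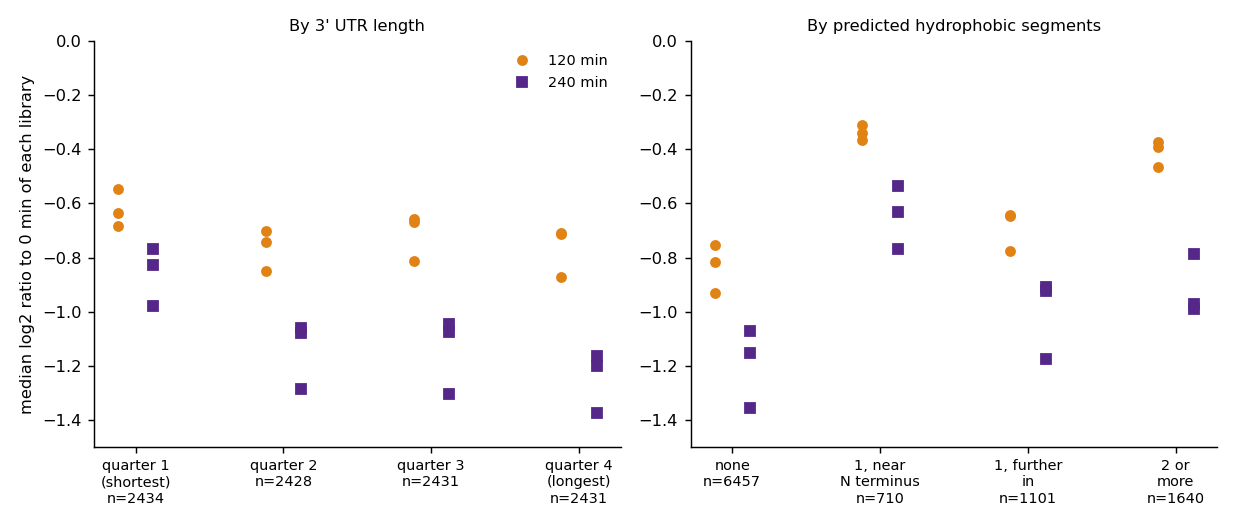
Median log2 ratio to 0 min in each membrane library at 120 min (circles) and 240 min (squares) for genes grouped by encoded hydrophobic segments and by 3′ UTR length. Genes with 2 or more segments and those with 1 near the start lie above genes with none at both times, and the 240 min points of the longest 3′ UTRs lie lower than those of the shortest.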

How the data were processed

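Polyadenylated RNA was sequenced. The submitters' processing notes and the methods name STAR 2.7.6 for alignment, RSEM 1.3.3 for counting and mm10 as the build. The authors scaled libraries on long-lived genes and divided by the level at 0 min, so each deposited value is a ratio, and genes at 0 are not listed. Groups and replicate numbers came from the sample titles. The 0 min libraries were not analysed here.

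Log2 ratios, with no pseudocount, were fitted in R 4.3.3 with limma 3.58.1 (eBayes with a mean trend, two-sided test, p adjusted by Benjamini-Hochberg, threshold 0.05) over the 6 libraries, over 12 with the cytosol and over 12 membrane libraries for rates. Replicates of the same fraction are separate cultures, whereas the cytosol and membrane fractions were extracted in turn from the same cells. Each gene's whole reads were recovered as the smallest whole numbers in the proportions of its ratios, once each library's value of 1 read was known, and served as depth, with counting error not given per gene. They also fed limma-voom.

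Members and gene lists were chosen with earlier results of these data known. Named were the 8 steepest called rises and falls listed in all 48 libraries, the 2 lowest adjusted p-values per list and direction, up to 4 called genes per direction of the cytosol test, and Tfrc and Nf1. The following were chosen after their values were seen: Insig1, Hspa5, Hsp90b1, Slc2a1, Fzd7, Notch1, Lamc1, Nid1, Cdh1, Itgb1, Lamp1, Pou5f1, Sox2, Nanog, Lifr, Gusb, Ctsz, Cd81, Srprb, Edem1, Mthfd2, Pck2, Gpt2, Nars, Yars and every other list member named with a log2 value alone. Of the 23862 genes 23786 had a symbol. Positions and transcript sequences come from GENCODE M21 on GRCm38, a later release than the authors used, and each gene's longest coding transcript was used. Scripts were tested on simulated data. Alternatives covered the pseudocount, filters, library scaling, trend, the replicate block, the samples in the fit and each replicate left out.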

Additional observations from a re-analysis of the deposited data

Results flagged for a closer look

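The following results are listed because the effect differed between fractions or between time windows by a test of the difference itself. The late change differed between the membrane fraction and the cytosol for 10 genes, 5 higher and 5 lower in the membrane fraction. Of these, 7 met the rule for naming. B4galnt2 (1.71), Ogt (1.31) and Nktr (1.05) changed upward relative to the cytosol, by log2 difference of differences, and Il17ra (-3.43), Elovl7 (-1.46), Slc27a3 (-1.44) and Slc35g1 (-1.15) downward. With the replicate block or with mitochondrial scaling 0 and 0 genes were called in these directions. Without any one library 0 to 1 and 0 to 5 were called, and no gene kept its call throughout. The later rate in the membrane fraction was higher than the earlier one for 1410 genes and lower for 350, but for 527 and 1017 with 180 min as the last time and for 784 and 1060 with centred libraries.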

How the results depend on the processing

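Of 322 rises and 3445 falls, 1229 and 1866 were called with libraries centred on the median gene, and 178 rises with libraries scaled on mitochondrially encoded mRNAs. Without any one library 159 to 257 genes rose and 1811 to 3105 fell, with over a 1.5-fold loss of rises without each library other than 240 min replicate 1, and of falls without 120 min replicates 1 and 3 (1811 and 1897). For the comparison with the cytosol (5 higher, 5 lower) the counts were 0 and 0 with genes listed in 2 of 3 libraries per group or with mitochondrial scaling, 8 and 24 with centring, 188 and 107 with all 24 libraries in the fit, and 0 to 1 and 0 to 5 without any one library. For rates (1410 higher, 350 lower) they were 2335 higher with a pseudocount of 0.1, 784 and 1060 with centring, 5339 and 67 with mitochondrial scaling, 527 and 1017 with 180 min as the last time, 116 and 37 with 60 to 120 min as the early window, and 455 to 2401 and 104 to 414 without any one library. The cause was not tested. With centring and with 180 min the balance of rates turned to more lower than higher. Apart from the replicate block, given below, the other alternatives kept each count within 1.5 times, and no called value changed sign. limma-voom, chosen after seeing the data, called 436 rises and 4483 falls, among them 254 of the 322 and 3313 of the 3445. Depth limits genes with few reads, and 3184 had under 10.

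Same-numbered membrane libraries of the earlier and the later time did not deviate together (correlations of -0.0025, 0.0340 and 0.0576). Between these times the numbers were therefore not taken as pairing. The cytosol and membrane fractions were extracted in turn from the same cells. Whether their same-numbered libraries deviate together was not tested, and the comparison with the cytosol treated them as unpaired. With the replicate block 188 genes rose and 2215 fell, 0 and 0 differed between the fractions, and 952 had a higher and 227 a lower later rate. Of the results for named genes 84 kept and 22 lost their side of the threshold with the block.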

Other observations

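Lists of genes that load tRNAs or make amino acids were written after values had been seen, and nothing is supported with them. Over all 12953 genes 2.49% rose and 26.6% fell in the membrane fraction. Of 14 cytosolic aminoacyl-tRNA synthetase genes, which load amino acids onto tRNA, 2 rose and none fell, with a median log2 difference of 0.48 against -0.36 over all genes, and 13 lay above 0. In the cytosol 4 rose and 1 fell. Yars went from 0.629, 0.551 and 0.534 to 0.815, 1.08 and 1.28, a log2 difference of 0.87 ± 0.20. Nars had 0.81 ± 0.23. Both were uncalled in several left-out settings, Yars without each 120 min replicate and without 240 min replicate 2 (adjusted p at most 0.0716), and Nars without any library other than 240 min replicate 1 (at most 0.116). Their mitochondrial counterparts fell in 2 of 16 cases, Yars2 by 1.77 and Mars2 by 1.31, with a median of -0.19.

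Of 19 genes of serine, one-carbon and nonessential amino acid synthesis 5 rose and none fell, with a median of 0.26, and in the cytosol 6 rose and 3 fell. Mthfd2, a mitochondrial folate enzyme, went from 0.651, 0.518 and 0.7 to 1.65, 2.02 and 2.22, a log2 difference of 1.66 ± 0.18 with an adjusted p of 0.00369, and was 1.36 in the cytosol. Pck2 rose from 0.498, 0.383 and 0.32 to 0.748, 0.904 and 1.13, a log2 difference of 1.22 ± 0.23, and Gpt2 by 1.20 ± 0.18. Cth and Psat1 rose by log2 differences of 0.92 and 0.88. Atf4, which encodes an activator of such genes, fell by 1.07 on the log2 scale in the same libraries. Its protein was not measured, and whether it had a part in these rises was not tested.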
